A study of Homo sapiens with 18 samples.

Results

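The MYC, MAX and MXD network was examined in HCT116, a human epithelial line from a colorectal carcinoma, at low and high cell density. The genes were chosen by name as MYC, MAX, MXI1, MXD1, MXD3, MXD4, MNT, MGA, MLX and TXNIP, and 9 of these 10 names were found among the 38055 genes of the whole transcriptome table. TXNIP, an alpha-arrestin that binds thioredoxin, was matched neither by symbol nor by its current identifier and is not analysed here. The table has 2428 rows for which the tables used here gave no symbol, so a row for TXNIP under another identifier is possible. Wild-type cells, with no further treatment named in the labels, were collected on day 3 at 50% confluency and on day 5 at 250% confluency, with 3 libraries labelled as biological replicates on each day. All libraries come from 1 cell line, and the day of growth and the cell density change together and cannot be told apart.

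MYC is a transcription factor that drives genes of growth, ribosome production and metabolism, and it is a central oncogene of colorectal cancer. It binds DNA only after pairing with MAX, and the preferred site is the E-box CACGTG. The MXD proteins (MXI1 is also called MXD2), MNT and MGA pair with the same MAX. MXD and MNT dimers repress through the SIN3 corepressor, whereas MGA is part of a polycomb complex called PRC1.6. MLX is a MAX-like partner that joins MXD1, MXD4 and MNT to a nutrient-sensing arm, in which MondoA (gene MLXIP) and ChREBP (gene MLXIPL) respond to sugar.

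The E-box shared by these dimers was first located in promoters of the network itself, because those letters are the preferred site of dimers of MYC and MAX. RefSeq promoters (GRCh38.p14) run here from 250 bases before to 50 bases after a transcription start, and entries were read for 9 of the 10 named genes, all but MYC. CACGTG reads the same on both strands. It was present in 7.26% of 35116 promoters and in 3 of the 15 promoters read for network genes, those of MXD4, MNT and MLX. ARRDC4, a sugar-responsive alpha-arrestin known as a MondoA target, is shown with them because its transcript is described below. Each line gives the strand of the gene from 5′ to 3′ with the E-box in capitals.
MXD4, chr4:2262330-2262359, minus strand: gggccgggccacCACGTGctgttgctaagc
MNT, chr17:2401236-2401265, minus strand: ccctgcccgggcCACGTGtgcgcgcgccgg
MLX, chr17:42567038-42567067, plus strand: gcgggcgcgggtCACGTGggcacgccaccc
ARRDC4, chr15:97960481-97960510, plus strand: aaacggcctgtgCACGTGcacgccggagcc
The E-box begins 238 bases before the start in MXD4, 193 before it in MNT, 50 before it in MLX and 210 before it in ARRDC4. The related sequence CACGCG, searched on both strands, was found in 11.4% of all promoters and in 4 of the 15 promoters of network genes. These belong to 4 of the 9 genes, MXD3, MXI1, MGA and TXNIP. These matches describe letters in a window. No binding was measured.

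The deposited whole transcriptome values are normalized read counts, and each value was a whole multiple of 1 read in its library, which gave depths of 27470978 to 56689369 reads. Day 3 held both extremes of depth. Its replicate 3, the shallowest library, lay farthest from the mean of its day, with a root mean square deviation of 0.293 on the log2 scale against 0.209 to 0.239 in the other 5. The 10 most abundant genes took 11.8 to 12.9% of the signal on day 3 and 8.73 to 9.03% on day 5. The epithelial label was borne out by EPCAM, with mean values of 7227 on day 3 and 7236 on day 5, and by keratins 8, 18 and 19. CDH1 and CDX2 were lower, with means of 637 and 226 on day 3 and of 3940 and 306 on day 5. The summed values of 6 epithelial and colon markers were 37108 to 55185 on day 3 and 100341 to 101430 on day 5. In the comparison described below 5 of the 6 rose, against 29.3% of all tested genes. The summed values of 7 markers of other cell types were 520.3 to 600.5 on day 3 and 1144 to 1214 on day 5. Nearly all of this came from COL1A1, a collagen gene, with means of 521 and 1129, while mean values of PTPRC, CD3E, CD68 and DCN stayed below 3. VWF had means of 14.1 and 32.1, and COL1A2 had means of 19.9 and 15.5. Of the 3 of these markers that were tested, 2 were called higher, COL1A1 and VWF (limma adjusted p = 0.0414 for VWF). The part of these differences between the days in the results was not tested. In bulk libraries, fewer cells that express a gene and less of its RNA per cell cannot be told apart.

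Values of the days were compared with limma on log2(value + 1), and p-values were adjusted by Benjamini-Hochberg over the 20129 genes that passed a filter on low values. All 9 network genes passed it. Of these, 6 rose on day 5, MYC, MXI1, MXD1, MXD4, MNT and MGA, and 0 fell. Over all tested genes 56.9% were called changed, with 29.3% called higher and 27.6% called lower. MAX, MXD3 and MLX did not pass the threshold. A rise of at least 1 on the log2 scale was called for MYC, MXI1, MXD1, MXD4 and MNT, 5 of the 9 genes, against 10.2% of all tested genes.

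**Figure D1:**
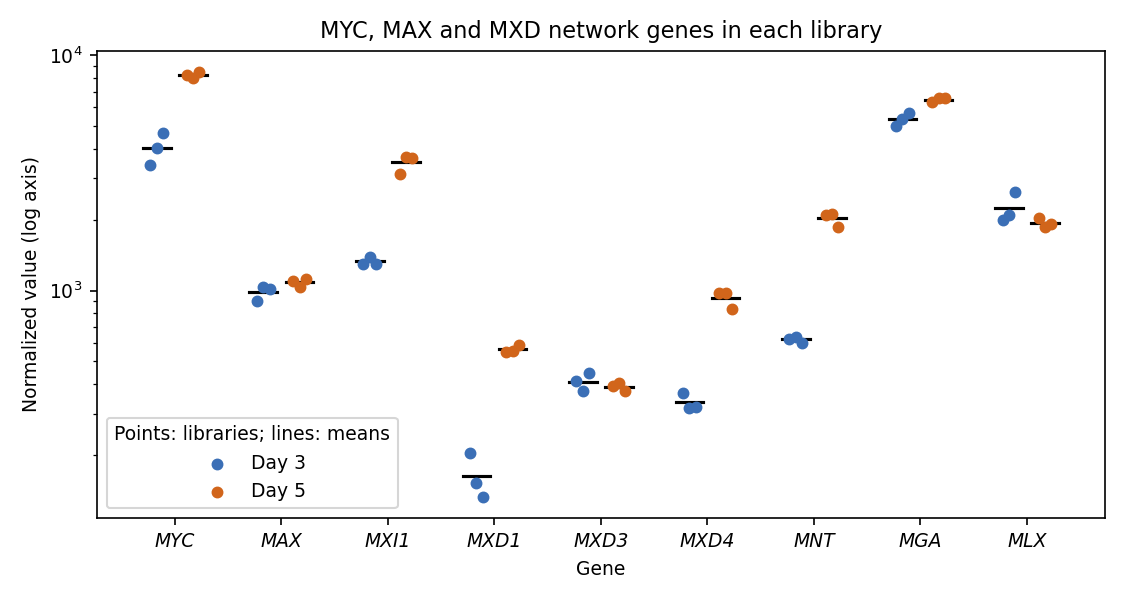
Normalized values of the 9 network genes (log axis) in each of the 3 day 3 and 3 day 5 libraries, with points for libraries and short lines for the mean of each day. The days are separate for MYC, MXI1, MXD1, MXD4, MNT and MGA, and overlap for MAX, MXD3 and MLX. Among all tested genes the days did not overlap for 65%.

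MYC had the highest mean value per kilobase in the network on both days and doubled between them. Its normalized values were 3408, 4048 and 4665 in the day 3 libraries and 8201, 7955 and 8478 in the day 5 libraries. The lowest day 5 library exceeded the highest day 3 library, and values on day 3 were more spread than those on day 5 (SD 629 against 261, n = 3 each). The mean rose from 4041 to 8211, a ratio of 2.03, and the log2 fold change was 1.03 ± 0.128 (SE; 95% interval 0.72 to 1.35; limma adjusted p = 0.00104). MAX, the obligate partner of MYC and of its antagonists, had values of 902, 1038 and 1011 on day 3 and 1093, 1038 and 1125 on day 5. These values overlap, and the log2 difference of 0.14 did not pass the test (95% interval -0.07 to 0.36; limma adjusted p = 0.212). The interval leaves room for a modest rise and excludes one as large as that of MYC. MYCL, a paralog of MYC that also pairs with MAX, was low, from 97.5 to 179 on day 3 and from 170.4 to 185 on day 5, with a log2 difference of 0.35 (limma adjusted p = 0.231). MYCN, the paralog known from neuroblastoma, had at most 1 read in any library.

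The genes of the MAX-bound repressors gave 4 of the 5 largest log2 fold changes among the network genes and their related factors. MXI1, a repressor that competes with MYC for MAX, had values of 1299, 1388 and 1299 on day 3 and 3127, 3706 and 3664 on day 5. The lowest day 5 library was more than 2 times the highest day 3 library, and the log2 fold change was 1.39 ± 0.0965 (SE; limma adjusted p = 0.000228). MXD1, the founding MXD gene and one linked to differentiation, had values of 204, 153 and 133 on day 3 and 549.8, 553 and 587 on day 5. It was the lowest of the 9 genes on day 3 and had the largest fold change, 1.80 ± 0.163 on the log2 scale (SE; limma adjusted p = 0.000398). MXD4, another MXD repressor linked to differentiation, had values of 369, 316 and 320.4 on day 3 and 975, 975 and 834 on day 5. Every day 5 library lay above every day 3 library, with a log2 fold change of 1.47 ± 0.108 (SE; limma adjusted p = 0.000244). MNT, the most widely expressed MAX-bound repressor, had values of 623, 634 and 601 on day 3 and 2089, 2123 and 1858 on day 5. The day 3 libraries lay within a narrow range (SD 16.9), and the log2 fold change was 1.70 ± 0.0852 (SE; limma adjusted p = 0.000156).

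MXD3, an MXD gene linked to proliferating cells, did not share this rise. Its values were 411, 373 and 447 on day 3 and 393, 403 and 373 on day 5, with a log2 difference of -0.07 (95% interval -0.30 to 0.16; limma adjusted p = 0.543). The days overlap fully, and the interval excludes a rise of the size seen for the other 4 repressor genes. On the same strand in GENCODE release 44, MXD3 shares 926 of its 4743 exon bases with RAB24 and MXD1 shares 237 of its 6351 with SNRNP27, so the reads counted for MXD3 and MXD1 are uncertain by what these neighbours add. MXD4 contains the 80 bases of MIR4800.

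MGA and MLX, the members on the polycomb and nutrient-sensing arms, moved little. MGA, by far the longest network gene, had values of 5022, 5378 and 5703 on day 3 and 6301, 6544 and 6556 on day 5. The days do not overlap, as was the case for 65% of all tested genes, 33.4% with day 5 the higher. The log2 fold change was 0.27 (95% interval 0.07 to 0.47) and passed the threshold narrowly (limma adjusted p = 0.0303). This call depended on single libraries: with any 1 of 5 libraries left out the limma adjusted p was 0.0648 to 0.0924, and only without day 3 replicate 3 did it stay below the threshold, at 0.0177. MLX had values of 2003, 2092 and 2629.6 on day 3 and 2032, 1866 and 1922 on day 5. The days overlap, and the log2 difference was -0.20 (95% interval -0.50 to 0.10; limma adjusted p = 0.215). It was -0.08 without day 3 replicate 3 and -0.27 without day 3 replicate 1. With edgeR on the recovered reads, which called 61% of tested genes, MLX was called lower (edgeR adjusted p = 0.0330).

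The sugar-sensing partners of MLX rose while MLX itself did not pass the test. MLXIP, which encodes MondoA, had values of 2398, 2477 and 2671 on day 3 and 4989.8, 4402 and 4369.8 on day 5, with a log2 fold change of 0.87 ± 0.0919 (SE; limma adjusted p = 0.000624). MLXIPL, which encodes ChREBP, a regulator of lipogenic genes in liver, had values of 819, 734 and 619 on day 3 and 1391, 1342 and 1146 on day 5. Its log2 fold change was 0.84 ± 0.136 (SE; limma adjusted p = 0.00287). The libraries of the days do not overlap for either gene.

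**Figure D2:**
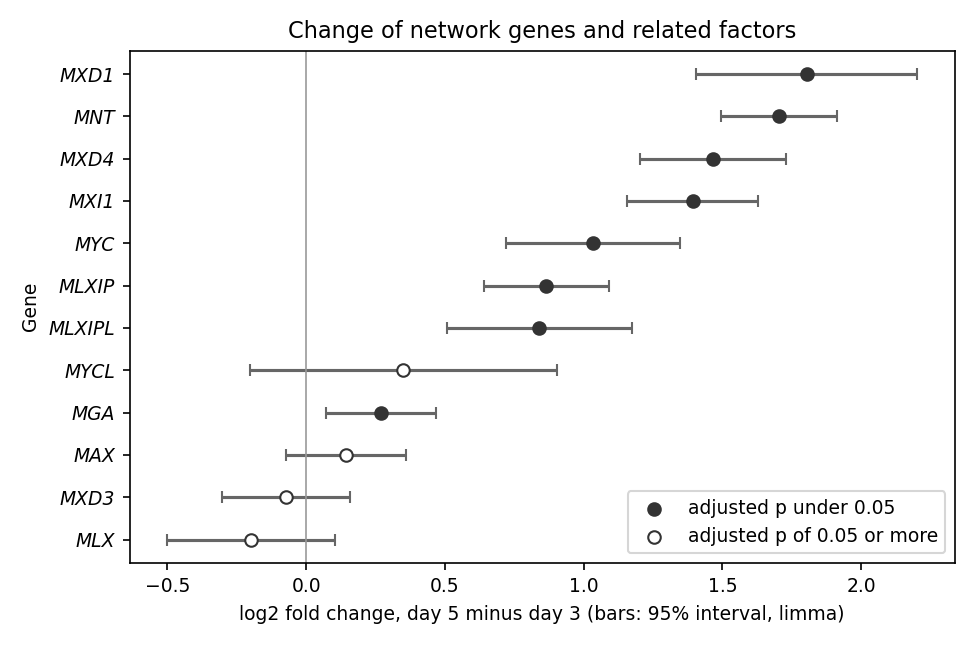
Log2 fold change of day 5 over day 3 with its 95% interval from limma, for the 9 network genes and for MYCL, MLXIP and MLXIPL, ordered by size, with filled points for an adjusted p under 0.05. MXD1, MNT, MXD4, MXI1 and MYC lie at 1.03 to 1.80, and the intervals of MYCL, MAX, MXD3 and MLX include 0.

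To compare genes with each other, values were divided by the exon length of the gene. Exons of all annotated transcripts were merged for this, so a gene with many alternative exons is set too low. On this per-kilobase scale the order of mean levels on day 3 was MYC (661), MLX (527), MGA (267), MXI1 (225), MAX (157), MXD3 (86.5), MNT (71.2), MXD4 (48.7) and MXD1 (25.7). The libraries of MYC and MLX overlapped, and no other neighbours in this order did. On day 5 the mean levels per kilobase were 1344 for MYC, 592 for MXI1, 456 for MLX, 322 for MGA, 233 for MNT, 173 for MAX, 135 for MXD4, 88.7 for MXD1 and 82.1 for MXD3, and no neighbours overlapped. MXI1 thus moved from the fourth place to the second and MNT passed MAX, while MXD3 went to the last place.

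The per-kilobase values were also summed over MXI1, MXD1, MXD3, MXD4 and MNT, the antagonists of MYC for MAX. The sum was 464, 457 and 451 in the day 3 libraries and 1081, 1185 and 1126 in the day 5 libraries, a ratio of means of 2.47. The day 3 sums lay close together (SD 6.68, n = 3), and the day 5 sums were more spread (SD 52.6, n = 3). MXI1 gave the largest part, 49.2 ± 2.07% on day 3 and 52.3 ± 3.09% on day 5 (SD, n = 3), which overlapped. The part from MXD3 went from 18.9 ± 1.84% to 7.27 ± 0.351%, that from MNT went from 15.6 ± 0.338% to 20.6 ± 1.63%, and that from MXD1 from 5.61 ± 1.17% to 7.86 ± 0.453% (SD, n = 3), each without overlap. MXD4 gave 10.7 ± 0.797% and 12 ± 1.18%, which overlapped. No test was run on these shares.

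**Figure D3:**
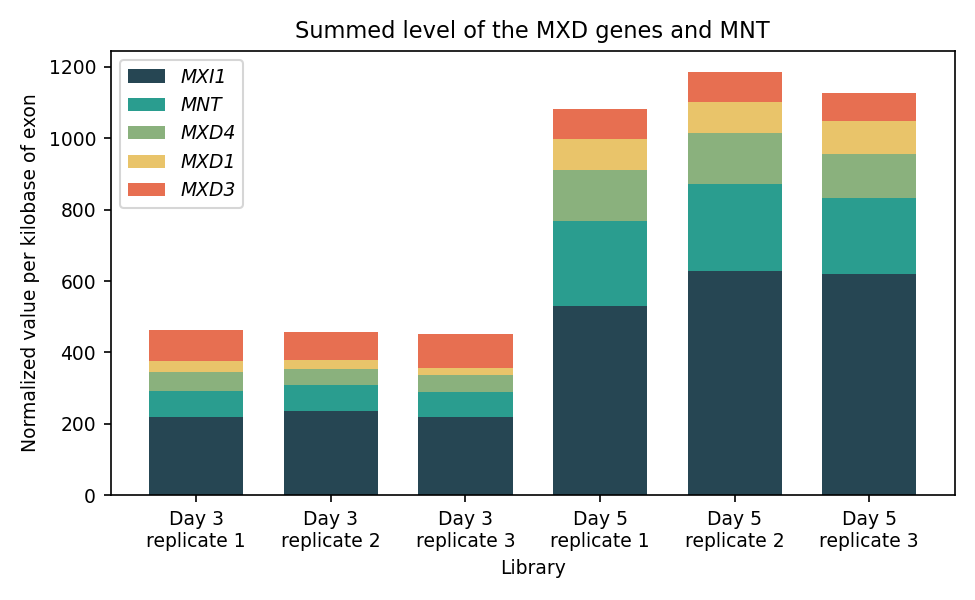
Normalized value per kilobase of exon of MXI1, MNT, MXD4, MXD1 and MXD3, stacked in each library. The stacks reach 451 to 464 on day 3 and 1081 to 1185 on day 5, and the MXD3 segment is a smaller part of each day 5 stack.

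Ratios taken within each library describe how the partners stood to each other. MYC over MAX per kilobase was 3.87, 3.995 and 4.73 on day 3 and 7.68, 7.85 and 7.72 on day 5. The antagonist sum over MAX was 3.22, 2.75 and 2.79 on day 3 and 6.18, 7.15 and 6.27 on day 5. Both ratios were higher in every day 5 library. The antagonist sum over MYC was 0.832, 0.689 and 0.590 on day 3 and 0.805, 0.910 and 0.811 on day 5. Here the days overlap, with means of 0.704 ± 0.121 and 0.842 ± 0.0591 (SD, n = 3), and the difference between the means was of the size of the day 3 spread. The sum of MLXIP and MLXIPL over MLX was 0.729, 0.673 and 0.520 on day 3 and 1.36, 1.36 and 1.22 on day 5, without overlap. These are ratios of transcripts and say nothing of protein. No test was run on them.

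**Figure D4:**
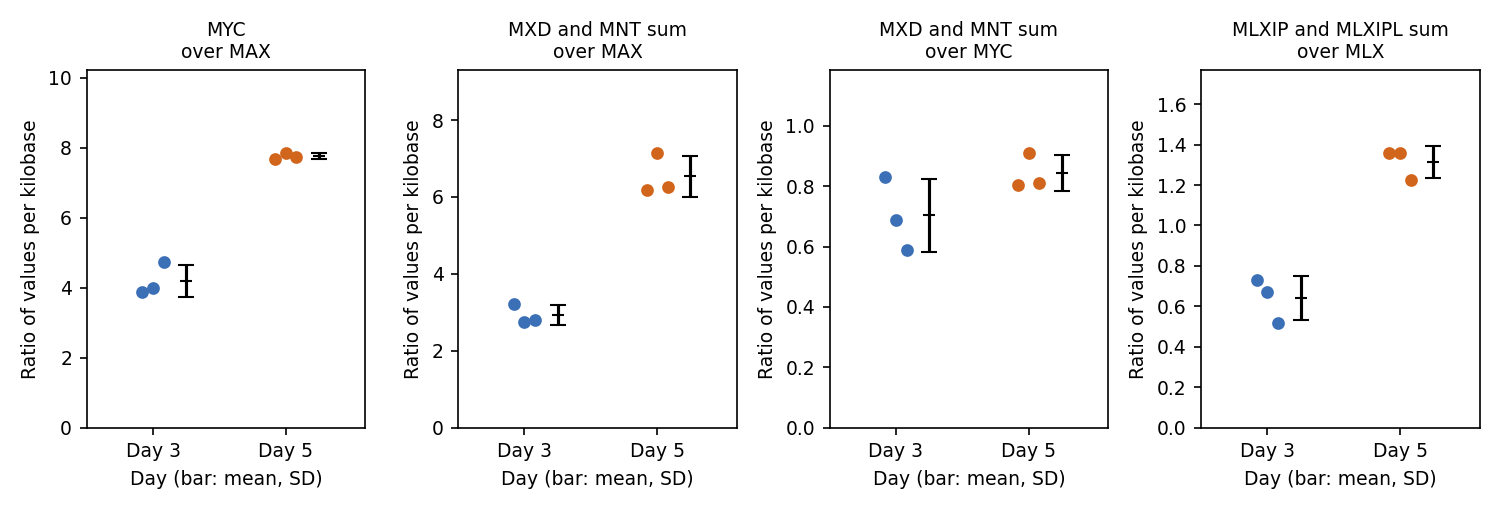
Ratios of per-kilobase values within each library on day 3 and day 5, with points for libraries and bars for mean and SD (n = 3). Ratios to MAX and to MLX are higher in all day 5 libraries, whereas the antagonist sum over MYC overlaps between the days.

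Long noncoding RNAs of the MYC locus were lower on day 5 or were not called. Of 8 listed RNAs, which include transcripts over enhancers used in colorectal cancer, 5 were in the table and 4 were tested, of which 0 rose and 3 fell. Their median log2 fold change was -0.60 against 0.01 over all tested genes, of which 27.6% were called lower and 29.3% higher. CASC19 (listed as PCAT2 in the table) fell from 115 ± 13 to 62 ± 8.65, PCAT1 from 30.2 ± 2.74 to 18 ± 4.89 and CASC8 from 187 ± 20.9 to 136 ± 19.2 (mean ± SD, n = 3). PVT1, whose gene lies beside MYC and is often amplified with it, had a log2 difference of -0.17 (limma adjusted p = 0.0755). Without day 3 replicate 1 or without day 3 replicate 3, only 1 of the 3 calls was made. PCAT1 had only 12 to 44 reads per library, and DESeq2 on the recovered reads did not call it (DESeq2 adjusted p = 0.155).

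Factors that set the lifetime of the MYC protein moved in both directions, with 3 higher, 2 lower and 2 not called of 7 tested (median 0.16), and the shares over all tested genes were 29.3% higher and 27.6% lower. HUWE1, a very large ubiquitin ligase that acts on MYC among other proteins, rose by 1.51 on the log2 scale, PIM1, a kinase that phosphorylates MYC, by 1.48 and USP36, a nucleolar deubiquitinase, by 0.44. SKP2, a ubiquitin ligase subunit known from cell cycle entry, fell by 1.15, and CIP2A, an inhibitor of the phosphatase PP2A, fell by 1.07. FBXW7, the ligase subunit that recognizes phosphorylated MYC, had a log2 difference of -0.20 (limma adjusted p = 0.068), and USP28 had one of 0.16 (limma adjusted p = 0.222). Among MYC coactivators and partners 7 rose, 2 fell and 1 was not called of 10 tested, with a median log2 fold change of 0.55. EP400, a chromatin remodeler, rose by 1.08, TRRAP, a scaffold of acetyltransferase complexes, by 1.07 and ZBTB17, the MYC partner also called MIZ1, by 0.61. The paired ATPase genes RUVBL2 and RUVBL1 parted, with a rise of 0.73 and a log2 fold change of -0.57, and CCNT1, the cyclin of the elongation kinase P-TEFb, fell by 0.41. WDR5 had a log2 difference of 0.17 (limma adjusted p = 0.372).

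Of the SIN3 corepressor used by MXD and MNT, 4 genes rose, 3 fell and 3 were not called of 10 tested (median 0.24), near the 29.3% higher and 27.6% lower over all tested genes. Both scaffold genes rose, SIN3A by 0.90 and SIN3B by 0.70, as did SAP130 by 0.83 and SAP30 by 0.53. SAP18 fell by 0.89, the histone deacetylase gene HDAC2 by 0.49 and the histone chaperone gene RBBP7 by 0.26, and the log2 differences of HDAC1, NCOR1 and RBBP4 were 0.22, 0.25 and -0.21. Of the PRC1.6 partners of MGA, 2 rose, 4 fell and 4 were not called of 10 tested (median -0.21), a share called that was near the 56.9% over all tested genes. CBX3, a heterochromatin protein, fell by 1.11 and PCGF6, the subunit that defines this complex, fell by 0.82, as E2F6 did by 0.46 and RNF2 by 0.25, while RYBP rose by 0.64 and RING1 by 0.61. The log2 differences of L3MBTL2, TFDP1, CBX1 and YAF2 were 0.16, -0.20, -0.18 and -0.22. The calls of RBBP7 and RNF2 were narrow (limma adjusted p = 0.0477 and 0.0473). They were lost with library totals (0.0622 and 0.145), no filter on low values (0.184 and 0.185) and the replicate block (0.0789 and 0.0961). RNF2 was also lost with every single library left out (limma adjusted p = 0.0526 to 0.137), and RBBP7 with most of them (0.0712 to 0.132). Of 10 germline genes that PRC1.6 silences in other cells, 4 passed the filter, 2 higher and 2 lower. STAG3 rose by 0.84 and TDRKH by 0.49, and MEIOC fell by 1.21 and SYCP3 by 0.97. STAG3, MEIOC and SYCP3 were near the filter, with mean values of 7.43 to 34.7. SYCP3 reached the filter value of 10 only in the day 3 libraries, so its fall comes from the day that let it pass. When any 1 of the 3 day 3 libraries was left out, 0 falls were called in this list by limma. In these fits SYCP3 was no longer tested, and MEIOC had a limma adjusted p of 0.0596 to 0.112.

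Textbook MYC target genes gave more falls than rises. Of 19 genes known to be activated by MYC 18 were tested, with 4 higher, 11 lower and 3 not called. Their median log2 fold change was -0.71, against 0.01 over all tested genes, of which 29.3% were called higher and 27.6% lower. ODC1, the first enzyme of polyamine synthesis, went from 23476 ± 2811 to 10785 ± 957 (mean ± SD, n = 3), or -1.12 on the log2 scale (limma adjusted p = 0.000633). NME1, a nucleoside diphosphate kinase, fell by 1.11, NPM1, a nucleolar protein of ribosome production, by 1.04 and EIF4E, the cap-binding initiation factor, by 1.02. LDHA, which makes lactate and has other known inducers, went the other way, from 38815 ± 3639 to 83125 ± 7212 (mean ± SD, n = 3), or 1.10 on the log2 scale (limma adjusted p = 0.000517). CAD, which starts pyrimidine synthesis, rose by 0.76, FBL, a nucleolar methyltransferase, by 0.48 and SHMT2, a mitochondrial enzyme of serine use, by 0.47. SRM, PTMA and TERT were not called, and CCND2 was too low to test. The 4 rises became 2 when any 1 of 4 libraries was left out (day 3 replicate 2 or any day 5 library).

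Of 5 genes known to be repressed by MYC, 4 rose, 0 fell and 1 was not called, with a median log2 fold change of 0.93. Among all tested genes the median was 0.01, with 29.3% called higher and 27.6% called lower. NDRG1, a stress-responsive gene that is also induced by hypoxia, went from 1283 ± 127 to 33006 ± 3163 (mean ± SD, n = 3), or 4.68 on the log2 scale (limma adjusted p = 5.6e-05). The cyclin-dependent kinase inhibitor genes CDKN2B and CDKN1A rose by 1.17 and 0.93, and GADD45A, a gene of growth arrest and DNA damage, by 0.59. NDRG2 had a log2 difference of 0.28 (limma adjusted p = 0.185).

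Of 5 listed sugar-response targets of MLX dimers, 4 were in the table and 3 were tested, PKLR being too low. All 3 tested genes were called higher: FASN, the fatty acid synthase, by 2.02 on the log2 scale, ARRDC4 by 1.27 and KLF10 by 1.20. ARRDC4, whose promoter E-box is printed above, had values of 166, 159 and 170.1 on day 3 and 409, 432 and 360.3 on day 5. Its 3 relatives that were tested also rose, ARRDC3 by 1.02, ARRDC1 by 0.86 and ARRDC2 by 0.78, so 4 of the 4 tested alpha-arrestins were higher on day 5. ARRDC4 counts in both lists. For these lists and the next, the shares over all tested genes were 29.3% higher and 27.6% lower. Of 4 genes linked to TXNIP (thioredoxins, a thioredoxin reductase and a glucose transporter), 1 rose, 2 fell and 1 was not called. SLC2A1, the glucose transporter GLUT1, rose from 2341 ± 305 to 23554 ± 2144 (mean ± SD, n = 3), or 3.34 on the log2 scale (limma adjusted p = 0.000104). TXN, thioredoxin, fell by 1.23 and TXNRD1, its reductase, fell by 0.50, while TXN2 had a log2 difference of -0.34 (limma adjusted p = 0.0713).

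**Figure D5:**
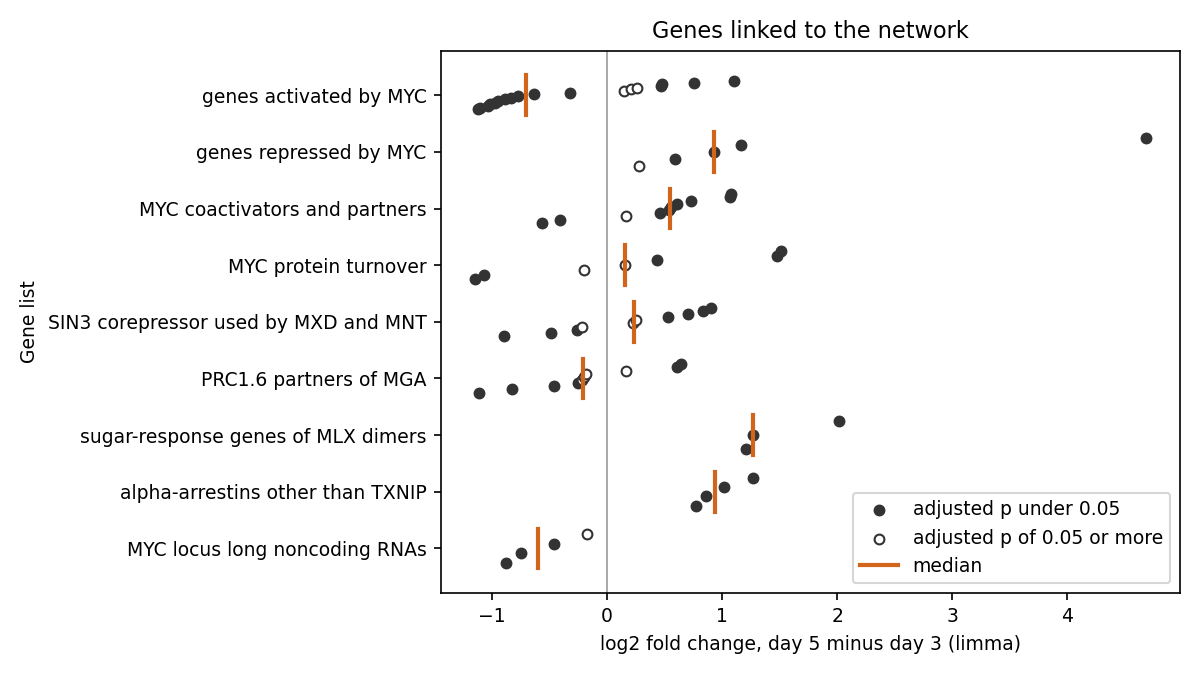
Log2 fold change (limma) of each tested gene in 9 lists linked to the network, with filled points for an adjusted p under 0.05 and an orange line at the median. Genes activated by MYC have a median of -0.71 and genes repressed by MYC one of 0.93, and NDRG1 lies apart at 4.68.

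The small RNA libraries of the same days, 3 per day, were read for 6 miRNAs with known links to the network. These deposited values are on a log2 scale, and limma called 14.8% of 539 tested miRNAs. Of the 6 miRNAs, miR-210-3p was called, at 9.82 ± 0.418 on day 3 and 11.57 ± 0.122 on day 5 (mean log2 value ± SD, n = 3; limma adjusted p = 0.000711). Let-7a-5p and miR-34a-5p, which are known to restrain MYC, had log2 differences of 0.27 and 0.29 (limma adjusted p = 0.202 for each). MiR-145-5p, also known to restrain MYC, had one of 0.06. MiR-17-5p and miR-20a-5p, which come from a cluster activated by MYC and share the seed AAAGUGC, had differences of 0.02 and 0.00. The called miRNA and the matches to its seed in 3′UTRs of network genes are shown because MNT, which encodes a MYC antagonist, is among its known targets. The seed (bases 2 to 8) and the letters that pair with it are in capitals. The mature sequence is from RefSeq, and the sites are from canonical transcripts of GENCODE release 44 on GRCh38.
miR-210-3p: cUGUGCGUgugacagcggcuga
MNT, first match, chr17:2384587-2384610, minus strand: cacacacacacacgcACGCACAcg
MNT, second match, chr17:2384581-2384604, minus strand: cacacacgcacgcacACGCACAca
MXD4, chr4:2249881-2249904, minus strand: tggtaggactgtcagACGCACAcg
Both MNT matches overlap within 1 repeat of CA. ACGCACA was found in 3.04% of 19469 canonical 3′UTRs. MNT and MXD4 were among the genes that rose on day 5, together with miR-210-3p. The letters GCACTTT, which pair with the seed of miR-17-5p and miR-20a-5p, occurred once each in the 3′UTRs of MXD1 and MXI1, at 2 places in that of TXNIP, and in 21.2% of all 3′UTRs. MXD4 also held 3 matches to the seed of miR-34a-5p and 1 to that of miR-145-5p. MNT held 1 match to that of miR-34a-5p, and MXD1 held 1 to that of let-7a-5p. Such matches occurred in 15.7% of all 3′UTRs for miR-34a-5p, 13.4% for miR-145-5p and 9.80% for let-7a-5p. No activity of these sites was measured.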

How the data were processed

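Network genes and gene lists were chosen with earlier results of these data known. The authors mapped whole transcriptome reads strand-specifically to hg38 genes in CLC Genomics Workbench, and the methods name TMM. The deposited signal is counts divided by a size factor, and 100% of values were whole reads within 0.05 read. The deposited small RNA values are log2 on a scale that the sources used here do not name, and their depth is unknown. The deposited tables also hold the authors' fold changes and p-values, which were not used. Features were kept where 3 or more of the 6 libraries reached a value of 10. limma (version 3.58.1) was fitted to log2(value + 1), so changes of low genes are understated, or to the deposited log2 values, with a threshold of 0.05. edgeR (version 4.0.16) and DESeq2 (version 1.42.0) on recovered reads, library totals, a pseudocount of 0.1, a variance trend, no filter, the replicate block and leaving out single libraries were alternatives. The limma fits were checked on simulated data. Symbols came from the table or GENCODE release 44, in which 35597 of 38055 identifiers were found. Of each list, up to 4 called genes with the largest absolute log2 fold change were named, plus genes that counts of 5 or fewer leave. SDs and tests cover the spread between labelled biological replicates. Libraries carried UMI adapters, and use of the UMIs in counting is not given in the sources used here. Some genes of the lists are not reported here and were left out of list counts.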

Additional observations from a re-analysis of the deposited data

How the results depend on the processing

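MYC, MXI1, MXD1, MXD4 and MNT passed the threshold with the same sign under all 13 alternatives, with log2 fold changes of 0.92 to 1.14 for MYC, and MAX and MXD3 under none. MGA passed under 6 of the 13 (adjusted p up to 0.149, with no filter on low values), and MLX under 1, edgeR. The number of genes called, 11450, became 9235 with no filter, 12280 with edgeR and 11131 with DESeq2. Dividing by library totals moved the median log2 fold change from 0.01 to 0.08 and the share of calls that were higher from 51.5% to 56.3%.

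Replicate numbers were not taken as pairing, since deviations of same-numbered whole transcriptome libraries correlated by -0.0112, 0.0343 and 0.0234, and those of small RNA libraries by 0.0748, 0.118 and 0.110. With the replicate number as a block 10533 genes and 71 miRNAs were called, and MGA had a limma adjusted p of 0.0660.

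Counts in lists moved as follows, and the cause was not tested. Germline genes gave 1 rise and 1 fall with DESeq2 and with no filter, and 1 fall with a variance trend. The falls ranged from 0 to 2 with single libraries left out, and SYCP3 was not tested where that was a day 3 library. Lower PRC1.6 genes numbered 7 with edgeR. All 10 SIN3 genes were called with edgeR, 6 higher and 4 lower, and edgeR called 61% of tested genes. DESeq2 gave the same SIN3 counts and called 11131 genes, and its share over all tested genes was not computed. With library totals 5 SIN3 genes were higher and 2 lower. Lower factors of MYC protein turnover and lower genes linked to TXNIP each numbered 3 with edgeR and with DESeq2. HDAC1, NCOR1, RBBP4, FBXW7, PVT1 and TXN2, which the main limma fit did not call, were called by edgeR and by DESeq2. Lower RNAs of the MYC locus numbered 4 with edgeR, 1 with no filter and 1 to 3 with single libraries left out. Higher MYC-activated genes numbered 2 with no filter and 2 to 4 with single libraries left out. The number of miRNAs called was 80, against 137 with library totals, 50 with no filter and 36 to 118 with single libraries left out.

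Among named list genes, the calls of CASC8, PCAT1, FBL, SHMT2, MEIOC, STAG3, SYCP3 and VWF were lost with no filter (limma adjusted p = 0.0519 to 0.123). Differences near 0 changed sign. EPCAM was at -0.00905 with edgeR and from -0.0276 to 0.0210 with single libraries left out. MiR-20a-5p was at -0.00807 with library totals and from -0.0798 to 0.0523 with single libraries left out, miR-17-5p from -0.0576 to 0.0737 and miR-145-5p from -0.0980 to 0.185. Day 3 replicate 3 had the fewest reads, which limits genes near the filter most.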
